A study of Mus musculus with 18 samples.

Results

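Levels of 9 long noncoding RNAs tied to cell growth and to the p53 response (*Malat1*, *Neat1*, *Gas5*, *Snhg1*, *Snhg12*, *Pvt1*, *Lncpint*, *Trp53cor1* and *Mir22hg*) were followed in 6 mouse lines of malignant peripheral nerve sheath tumor (MPNST), a sarcoma of the nerve sheath. The members were chosen by gene symbol from the count table, in which 8 of the 9 were listed under these symbols among 35275 genes. *Lncpint* was listed as *Lincpint* and was matched by its Ensembl identifier. The choice used no measured value, and all 9 passed the filter on low counts, so each was tested among 15207 genes.

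RNA was sequenced from 18 libraries, 3 cultures of each of 6 lines, 3 lines per genotype. Every line came from a separate tumor, raised in 129 Sv/Jae mice by injecting the sciatic nerve with an adenovirus carrying guide RNAs and Cas9 under the CMV promoter, which is active in many cell types. The guides cut *Nf1* together with p53 (*Trp53* in the mouse) for the *Nf1*/*p53* double knockout (dKO), or *Nf1* together with *Cdkn2a* for the *Nf1*/*Cdkn2a* dKO. The lines were untreated, and loss of *Nf1* is shared by both genotypes, so no line without an edit was compared.

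Long noncoding RNAs are transcribed and often spliced like messenger RNAs but are not thought to act through a protein. *Malat1* and *Neat1* stay in the nucleus, in nuclear speckles and paraspeckles respectively. *Gas5*, *Snhg1* and *Snhg12* carry small nucleolar RNAs (snoRNAs) in their introns, and their spliced transcripts are cleared quickly by nonsense-mediated decay. *Pvt1* is a neighbor of *Myc* and is frequently co-amplified with it in tumors, and *Lncpint*, *Trp53cor1* (lincRNA-p21) and the miR-22 host *Mir22hg* have each been linked to p53.

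Sequences that mark what these transcripts carry are shown before the values. A start with a run of pyrimidines marks many messenger RNAs whose translation follows growth, and snoRNA hosts are known to share it. The windows below, from RefSeq on GRCm38.p6, run from 15 bases before to 35 bases from an annotated start on the gene's strand, and capitals mark the longest run of at least 6 C or T lying between 5 bases before and 25 bases after the start. They lie at chr1:161035151-161035200 for the second annotated start of *Gas5*, chr19:8723472-8723521 for *Snhg1* and chr4:132308663-132308712 for *Snhg12*, all on the plus strand.
Gas5: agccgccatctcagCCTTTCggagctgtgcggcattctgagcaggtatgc
Snhg1: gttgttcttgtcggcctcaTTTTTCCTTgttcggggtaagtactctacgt
Snhg12: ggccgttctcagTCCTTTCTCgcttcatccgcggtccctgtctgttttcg
A run of this kind was found at a start of all 3 snoRNA hosts and in 26.1% of 32851 promoters, but not at the other annotated start of *Gas5* nor in the windows of *Malat1*, *Lncpint* and *Mir22hg*. The 7 promoter windows that the table held for the members, covering *Malat1*, *Gas5* (with a pair of starts), *Snhg1*, *Snhg12*, *Lncpint* and *Mir22hg*, held no decamer of the p53 half-site, a palindromic pattern that reads the same way on both strands, which occurred in 8.36% of all promoters of this length. The E-box CACGTG, whose reverse complement is the same, was present in the window of *Lncpint* and in 7.15% of all promoters. *Neat1*, *Pvt1* and *Trp53cor1* had no entry.

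*Mir22hg* is shown by the product it is named for. The mature miRNAs of miR-22 lie in its exon at chr11:75463734-75463755 (5p) and chr11:75463772-75463793 (3p), plus strand, and capitals mark the seed, bases 2 to 8.
mmu-miR-22-5p: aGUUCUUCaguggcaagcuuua
mmu-miR-22-3p: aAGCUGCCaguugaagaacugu
Levels of the mature miRNAs and of the snoRNAs were not analysed here. In GENCODE M21, 10 snoRNA genes overlap *Gas5*, 8 overlap *Snhg1* and 5 overlap *Snhg12*.

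Library totals ran from 19560535 to 28312207 counts (median 23149777), and line sums from 65206479 to 73065228. Levels are given as CPM, counts scaled to the size of the line or library with TMM factors, and differences as log2 fold changes of the *Nf1*/*Cdkn2a* dKO over the *Nf1*/*p53* dKO from edgeR. The line was the replicate, because cultures of 1 line descend from 1 tumor. *Trp53* measured 94.1, 67.4 and 58.6 CPM in *Nf1*/*p53* dKO lines 1 to 3 and 247, 246 and 185 CPM in *Nf1*/*Cdkn2a* dKO lines 1 to 3, with no overlap and a log2 fold change of 1.62 ± 0.23 (SE, edgeR adjusted p = 0.0361, n = 3 lines per genotype). That call held in the fits without each line in turn only when *Nf1*/*p53* dKO line 1 was left out, the adjusted p then being 0.0436, with the others from 0.0671 to 0.124. Neither *Nf1* (log2 fold change -0.96, adjusted p = 0.328) nor *Cdkn2a* (0.30, adjusted p = 0.83) passed edgeR's test, and counts per gene do not show whether an edit is present. The 8 mesenchymal markers summed to between 8820 and 23500 CPM per line, whereas the 8 Schwann cell markers summed to between 1.48 and 8.88 CPM in 5 lines and to 74.8 CPM in *Nf1*/*p53* dKO line 2, of which *Ngfr* made up 64.3 CPM. The defining marker *Sox10* was at or below 0.0989 CPM in every line. The 7 leukocyte markers summed to at most 8.13 CPM, the 4 endothelial markers to at most 2.02 CPM, and the 3 epithelial markers to 540 CPM in *Nf1*/*p53* dKO line 2, 601 CPM in *Nf1*/*Cdkn2a* dKO line 1 and at most 22.5 CPM elsewhere. *Krt8* alone measured 539.6 CPM in *Nf1*/*p53* dKO line 2 and 601.2 CPM in *Nf1*/*Cdkn2a* dKO line 1. *Epcam* stayed at or below 0.764 CPM and *Cdh1* at or below 1.26 CPM in every line. In bulk RNA, fewer cells of a type and less RNA per cell cannot be told apart.

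No member passed edgeR's test at an adjusted p under 0.05 (0 of 9, against 1.80% of the 15207 genes tested). At an unadjusted p under 0.05, edgeR gave 3 of 9 (*Malat1*, *Neat1* and *Snhg1*) against 22.4% of all genes. DESeq2 on the same 6 lines called 1, *Malat1*, against 11.8% of genes, and limma-voom, run over all 18 cultures with a random line term, called *Malat1* and *Snhg1*, 2 of the 8 tested there, against 16.6%. When the 18 cultures were treated as separate samples, edgeR called 7 of 8 against 46.5% and DESeq2 7 of 9 against 38.9%, and edgeR with the culture number as a block called 7 of 8 against 43.3%. For 3 of 9 members (*Malat1*, *Snhg1* and *Mir22hg*) no line of one genotype fell within the range of the other, against 31.4% of all genes, so this share was near the background. The log2 fold change was above 0 for 7 of the 9 members, compared with 48.2% of all genes tested, and the median over the members was 0.50 compared with -0.02 over all genes and -0.09 over the 1021 tested genes of noncoding types.

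**Figure D1:**
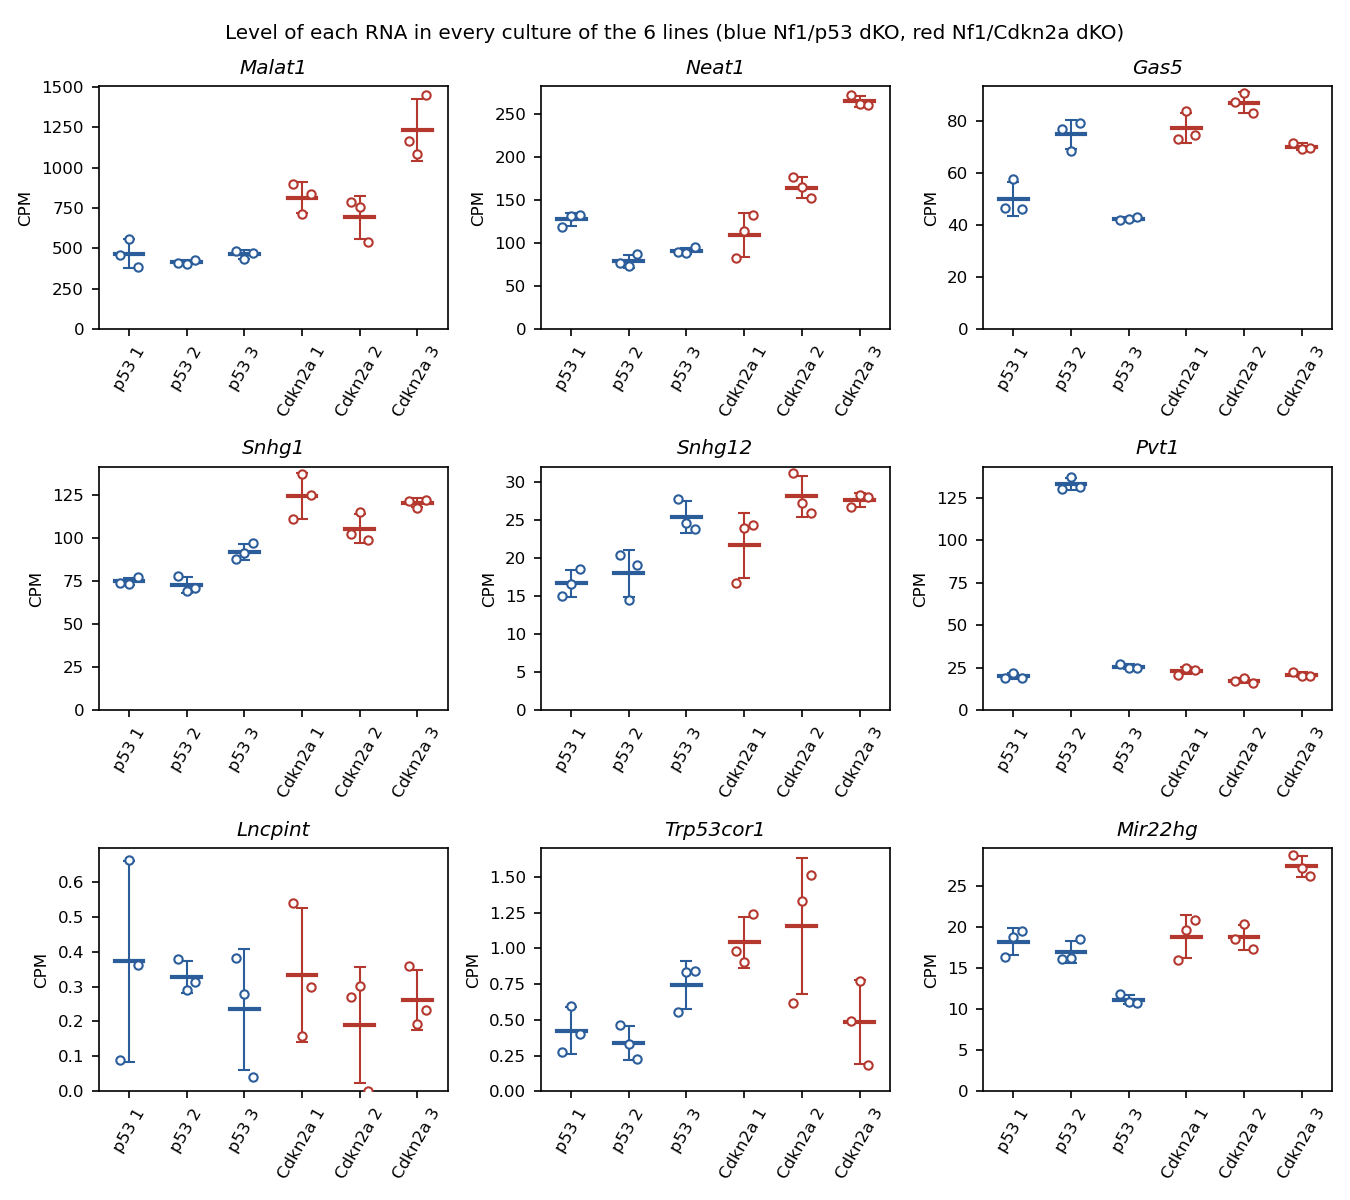
CPM (vertical axes, from 0) of each RNA in the 3 cultures (open points) of the 6 lines (horizontal axes), with the mean of the cultures as a horizontal line and their SD as whiskers, *Nf1*/*p53* dKO in blue and *Nf1*/*Cdkn2a* dKO in red. *Malat1* and *Snhg1* are higher in all *Nf1*/*Cdkn2a* dKO lines, and *Pvt1* stands at 131.9 CPM in *Nf1*/*p53* dKO line 2 against 17.5 to 25.7 CPM in the other lines.

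Per kilobase of merged exon, the scale on which different RNAs may be set side by side, *Malat1* was the most abundant member at 58.8 to 179 CPM per kb over the 6 lines. *Snhg1* followed at 24.3 to 41.9 and *Gas5* at 11.3 to 23.3 CPM per kb. *Snhg12* (6.95 to 11.8), *Mir22hg* (5.80 to 14.4), *Neat1* (3.77 to 12.9) and *Pvt1* (up to 18.8 CPM per kb) overlapped in range. *Trp53cor1* (0.0909 to 0.301) and *Lncpint* (0.0274 to 0.0541 CPM per kb) rested on 14 to 78 counts per line. The exon lengths of *Snhg1*, *Snhg12* and *Gas5* include models that keep introns (for *Gas5*, 3760 exon bases in a span of 4118), which lowers their values on this scale and limits their order. For *Neat1* the whole exon of 20771 bases was used, and counts do not separate its short and long isoforms. Reads from the short isoform would make its value too low on this scale, so its place in the order is limited too.

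*Malat1* was higher in the *Nf1*/*Cdkn2a* dKO lines. *Malat1*, a conserved nuclear RNA that associates with splicing factors, lies at chr19:5795690-5802672 on the minus strand as 1 exon of 6983 bases. It measured 472, 410 and 463 CPM in *Nf1*/*p53* dKO lines 1 to 3 and 820, 704 and 1248 CPM in *Nf1*/*Cdkn2a* dKO lines 1 to 3. The groups of lines did not overlap, and single cultures ran from 385 to 560 CPM (median 435) in the *Nf1*/*p53* dKO against 540 to 1452 CPM (median 835) in the *Nf1*/*Cdkn2a* dKO. Only the ranges of *Nf1*/*Cdkn2a* dKO line 3 and of *Nf1*/*p53* dKO line 2 stood apart from their neighbors in the order of levels. The log2 fold change was 1.04 ± 0.24 (SE), and edgeR's adjusted p was 0.0755. Left out in turn, the lines gave 0.77 to 1.21, lowest without *Nf1*/*Cdkn2a* dKO line 3.

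*Neat1*, the scaffold of paraspeckles, starts close by on the same strand (chr19:5824708-5845478, 1 exon of 20771 bases), and 22036 bases separate it from *Malat1*. It measured 128, 78.2 and 91.6 CPM in *Nf1*/*p53* dKO lines 1 to 3 and 111, 166 and 268 CPM in *Nf1*/*Cdkn2a* dKO lines 1 to 3. Cultures ran from 73.0 to 132.7 CPM (median 90.2) against 82.4 to 272.8 CPM (median 164.9). Here the groups overlapped, since *Nf1*/*p53* dKO line 1 stood above *Nf1*/*Cdkn2a* dKO line 1. The log2 fold change of 0.87 ± 0.35 (SE, edgeR adjusted p = 0.209) leaned on 1 line and came to 0.49 without *Nf1*/*Cdkn2a* dKO line 3. Counts do not separate the short and the long isoform of *Neat1*, which share their start.

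A protein-coding gene beside this pair, *Frmd8*, ranked the 3 *Nf1*/*Cdkn2a* dKO lines in the same order as *Malat1* and, like it, was lowest in *Nf1*/*p53* dKO line 2. *Frmd8*, whose start lies 29796 bases from that of *Neat1* and which acts with the iRhom proteins, measured 81.5, 69.2 and 83.4 CPM in *Nf1*/*p53* dKO lines 1 to 3 and 126, 115 and 198 CPM in *Nf1*/*Cdkn2a* dKO lines 1 to 3, for a log2 fold change of 0.90 ± 0.23 (SE, edgeR adjusted p = 0.0931). It did not overlap between the genotypes. Besides *Malat1* and *Neat1*, 54 tested genes, *Frmd8* among them, had their start within 500 kb of that of *Malat1*. Of these, 45 had a log2 fold change above 0 and 9 below it, with a median of 0.36 and a range of -1.76 to 2.20. On the whole of chromosome 19, 73.2% of the tested genes were above 0 and the median was 0.30. A gene model on the opposite strand, not analysed here, covers 453 exon bases of *Malat1*, and the strand setting of the counting is not given in the sources used here.

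**Figure D2:**
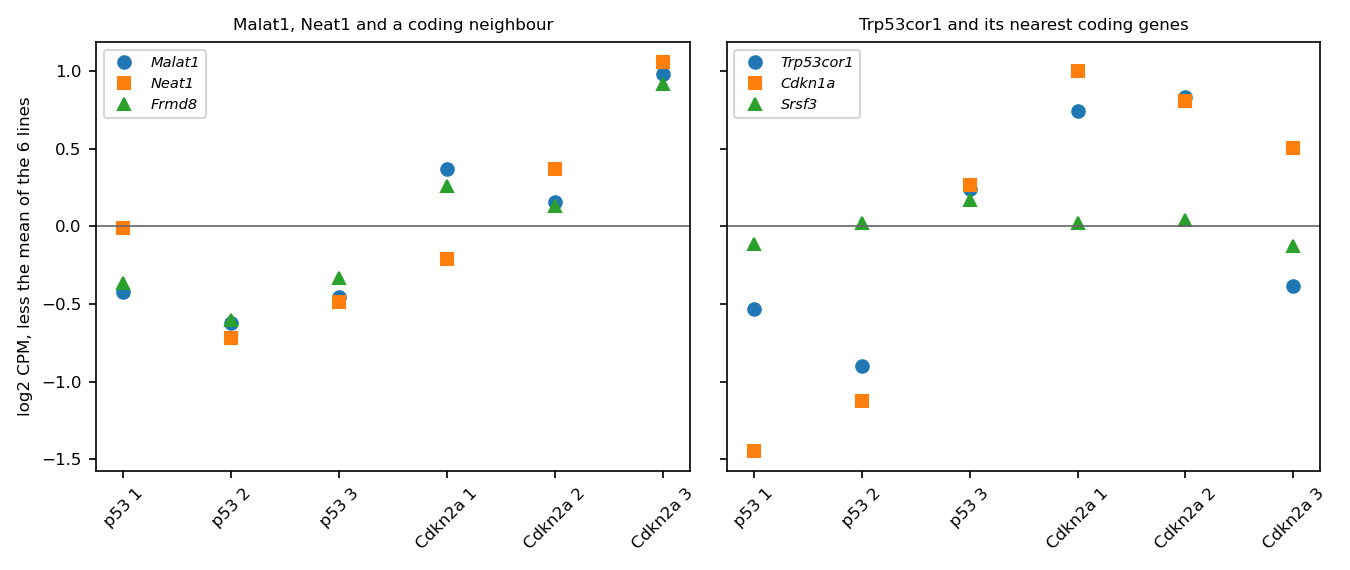
Log2 CPM of each gene less its mean over the 6 lines (vertical axis), by line (horizontal axis). The left panel shows *Malat1*, *Neat1* and *Frmd8*, all highest in line 3 of the *Nf1*/*Cdkn2a* dKO, and the right panel *Trp53cor1*, *Cdkn1a* and *Srsf3*, where line 3 is the lowest *Nf1*/*Cdkn2a* dKO line for both *Trp53cor1* (0.485 CPM) and *Cdkn1a* (128 CPM).

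*Gas5*, a snoRNA host that builds up in arrested cells, lies at chr1:161034422-161038539 on the plus strand. It measured 50.5, 74.2 and 42.5 CPM in *Nf1*/*p53* dKO lines 1 to 3 and 77.2, 87.5 and 70.9 CPM in *Nf1*/*Cdkn2a* dKO lines 1 to 3. *Nf1*/*p53* dKO line 2 stood above the lowest *Nf1*/*Cdkn2a* dKO line, so the groups overlapped. Cultures ran from 41.9 to 79.4 CPM (median 46.6) against 69.3 to 90.9 CPM (median 74.8). The log2 fold change was 0.49 ± 0.23 (SE, edgeR adjusted p = 0.264), and it was 0.77 without *Nf1*/*p53* dKO line 2 and 0.34 without *Nf1*/*p53* dKO line 3. The coding neighbors gave 0.26 for *Zbtb37*, whose start is 427 bases away on the opposite strand, and -0.13 for *Serpinc1*, the antithrombin gene, whose sign changed with the line left out.

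*Snhg1*, which hosts snoRNAs beside *Slc3a2*, lies at chr19:8723475-8726443 on the plus strand; its position was matched by symbol because its identifier in the table is not in GENCODE M21. It measured 74.3, 72.2 and 91.9 CPM in *Nf1*/*p53* dKO lines 1 to 3 and 124, 106 and 121 CPM in *Nf1*/*Cdkn2a* dKO lines 1 to 3. Every *Nf1*/*Cdkn2a* dKO culture (98.7 to 137.2 CPM) was above every *Nf1*/*p53* dKO culture (69.1 to 96.7 CPM). Cultures of a line are not independent, and the share of all genes whose cultures separate in this way is not given here. At the level of lines, 31.4% of all tested genes did not overlap between the genotypes. Its log2 fold change of 0.56 ± 0.15 (SE, edgeR adjusted p = 0.1) had the smallest SE among the members and ran from 0.51 to 0.68 with each line left out. The coding genes on either side gave 0.17 for *Slc3a2*, the heavy chain of amino acid transporters, and 0.31 for *Wdr74*, a ribosome assembly factor (edgeR adjusted p = 0.577 and 0.266).

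*Snhg12* at chr4:132308623-132311024 (plus strand) measured 16.7, 17.8 and 25.5 CPM in *Nf1*/*p53* dKO lines 1 to 3 and 21.8, 28.4 and 27.9 CPM in *Nf1*/*Cdkn2a* dKO lines 1 to 3. Cultures ran from 14.55 to 27.8 CPM (median 19.1) against 16.7 to 31.2 CPM (median 26.7). Their ranges overlapped between all neighbors in the order of the lines. Its log2 fold change was 0.38 ± 0.23 (SE, edgeR adjusted p = 0.368). Beside it, *Rab42* measured under 1 CPM in all lines, and *Trnau1ap*, which serves selenocysteine tRNA, had a log2 fold change of -0.0034 (edgeR adjusted p = 0.992).

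Of 15 other hosts in the list, 14 were tested and 1 was called, *Snhg11*, which is chiefly a neuronal transcript. *Snhg11* measured 4.01, 5.68 and 1.44 CPM in *Nf1*/*p53* dKO lines 1 to 3 and 0.160, 0.101 and 0.203 CPM in *Nf1*/*Cdkn2a* dKO lines 1 to 3 (log2 fold change -4.57, edgeR adjusted p = 0.0388). The median log2 fold change of the list was 0.14, the highest value 0.64 for *Snhg6* (edgeR adjusted p = 0.202), and 8 of 14 were above 0. None of the 14 snoRNP protein genes was called by edgeR, with 2 at an unadjusted p under 0.05 and 1 called by DESeq2 on the 6 lines and 1 by limma-voom, and 12 had a log2 fold change below 0 (median -0.21, from -0.73 for *Znhit6* to 0.12 for *Nop58*). Among 10 genes of nonsense-mediated decay, *Smg5*, which recruits decay enzymes to the target RNA, fell by 1.07 on the log2 scale (245, 332 and 298 CPM against 140, 146 and 131 CPM, edgeR adjusted p = 0.0388). Each of these calls held in only 1 of 6 refits with a line left out, *Snhg11* without *Nf1*/*p53* dKO line 3 (edgeR adjusted p = 0.038) and *Smg5* without *Nf1*/*p53* dKO line 1 (0.046), the others giving 0.0673 to 0.143. The median of the nonsense-mediated decay list was -0.21, and 3 of its 10 genes had a log2 fold change above 0. None of 22 messenger RNAs of the 5' TOP class, which share the pyrimidine start, was called by edgeR, with 4 at an unadjusted p under 0.05, 4 called by DESeq2 on the 6 lines and 6 by limma-voom (median 0.08, from -0.41 for *Rpl8* to 0.84 for *Tpt1*).

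The proteins of the bodies in which *Malat1* and *Neat1* reside showed no called gene in edgeR. For 16 paraspeckle proteins the median log2 fold change was -0.04, from -0.47 for *Taf15* to 0.27 for *Hnrnph3*, with 1 at an unadjusted p under 0.05 and 0 called by DESeq2 on the 6 lines or by limma-voom. For 14 nuclear speckle genes it was 0.02, from -0.63 for *Rnps1* to 0.66 for *Srsf5*, with 1 at an unadjusted p under 0.05, 0 called by DESeq2 and 2 by limma-voom. With single lines left out these medians ran from -0.12 to 0.08 and from -0.08 to 0.07, so neither had a fixed direction.

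*Pvt1* separated 1 line from the other 5 rather than the genotypes. It lies at chr15:62037986-62378096 on the plus strand, and its start is 52595 bases from that of *Myc*. *Pvt1* measured 20.03, 131.9 and 25.7 CPM in *Nf1*/*p53* dKO lines 1 to 3 and 23.2, 17.5 and 21.2 CPM in *Nf1*/*Cdkn2a* dKO lines 1 to 3. In *Nf1*/*p53* dKO line 2 the 3 cultures were close together at 130.3, 136.9 and 131.2 CPM, whereas all cultures of the other lines lay between 15.9 and 27.2 CPM. That line was 5.14 times the highest of the other 5, a distance reached by 88 of the tested genes (0.579%). Between the genotypes the log2 fold change was -1.52 ± 0.72 (SE, edgeR adjusted p = 0.271) and came to -0.14 once *Nf1*/*p53* dKO line 2 was left out. The pseudogene *H2afy3*, which shares 109 exon bases with *Pvt1* on the opposite strand, had no count in any line.

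*Myc*, the transcription factor that drives growth, was also highest in *Nf1*/*p53* dKO line 2, at 264 CPM, against 133 and 110 CPM in *Nf1*/*p53* dKO lines 1 and 3 and 118, 160 and 93.2 CPM in *Nf1*/*Cdkn2a* dKO lines 1 to 3. The genotypes overlapped (log2 fold change -0.45 ± 0.37 (SE), edgeR adjusted p = 0.513), and the sign turned to 0.039 without *Nf1*/*p53* dKO line 2. *Pvt1* per *Myc* was 0.5 in that line and 0.11 to 0.233 in the others. The surroundings were then examined, a step chosen after the values of *Pvt1* were seen. Of 38 other tested genes within 5 Mb of the start of *Pvt1*, the median log2 ratio of *Nf1*/*p53* dKO line 2 to the mean of the other 5 lines was 0.00787, compared with 0.0563 on the whole of chromosome 15 and -0.0516 over all tested genes. The ratio was 2.62 for *Pvt1* and 1.10 for *Myc*. *Fam84b*, at -1184208 bases from the start of *Pvt1*, measured 21.7 CPM in *Nf1*/*p53* dKO line 2 and 2.64 to 16.1 CPM in the other lines, and *9930014A18Rik* next to it 5.60 CPM against 0.595 to 2.15 CPM. These genes were likewise highest in that line. Further out, the ratio was -0.75 for *Trib1* and 0.18 for *Fam49b*, the nearest tested genes with a mean above 1 CPM on either side of those, but high levels in that line were not limited to this stretch. *Wisp1*, at 4853334 bases, measured 133.8 CPM in *Nf1*/*p53* dKO line 2 against 9.42 to 49.2 CPM in the other lines (ratio 2.40), and *Derl1*, at -4145538 bases, was also highest there by a small margin (169.3 against at most 158.2 CPM). The summed Schwann cell and mesenchymal markers were also highest in the same line, and their part in these values was not tested.

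**Figure D3:**
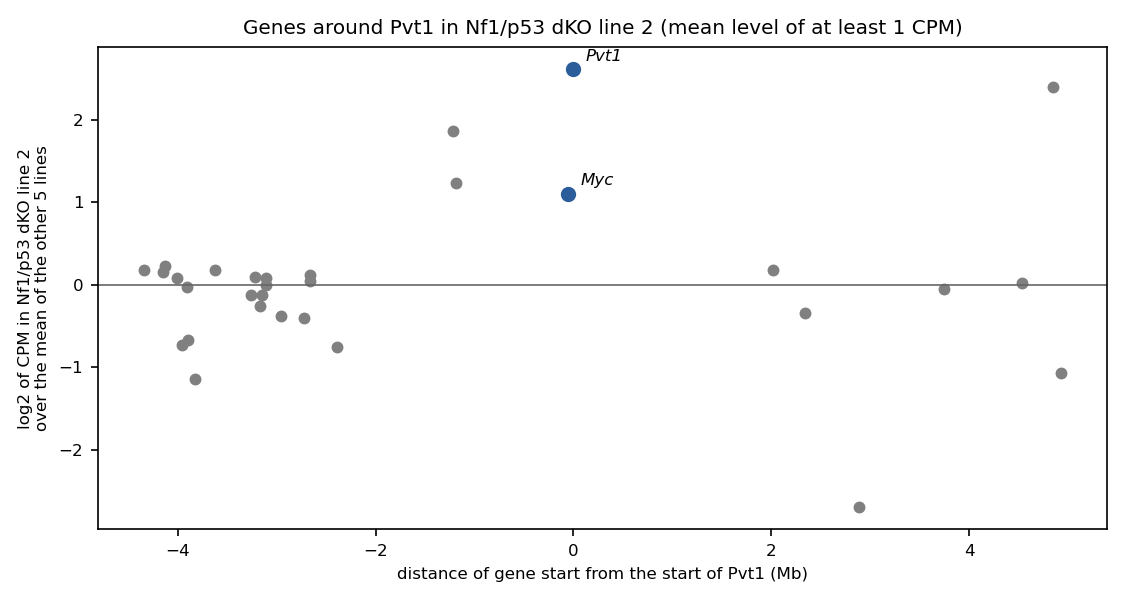
Log2 ratio of CPM in *Nf1*/*p53* dKO line 2 to the mean of the other 5 lines (vertical axis) against the distance of each gene's start from that of *Pvt1* in Mb (horizontal axis), for 31 tested genes with a mean of at least 1 CPM. *Pvt1* (2.62) and *Myc* (1.10) are in blue, and 23 of the other genes lie within 1 of 0.

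*Trp53cor1* lies beside the p53 target *Cdkn1a*, the gene of the cell cycle inhibitor p21. It is at chr17:29057430-29079179 on the minus strand, 11797 bases from the start of *Cdkn1a*. Its level was low, at 34, 24 and 54 counts in *Nf1*/*p53* dKO lines 1 to 3 and 66, 78 and 31 counts in *Nf1*/*Cdkn2a* dKO lines 1 to 3. On the CPM scale this was 0.438, 0.339 and 0.747 against 1.06, 1.13 and 0.485, with exact 95% Poisson intervals for counting error of 0.303 to 0.612 CPM in *Nf1*/*p53* dKO line 1 and 0.889 to 1.40 CPM in *Nf1*/*Cdkn2a* dKO line 2. Intervals of other lines overlapped between the genotypes. *Nf1*/*p53* dKO line 3 had 0.561 to 0.974 CPM, against 0.819 to 1.35 CPM in *Nf1*/*Cdkn2a* dKO line 1. The interval of *Nf1*/*Cdkn2a* dKO line 3, 0.329 to 0.688 CPM, overlapped that of every *Nf1*/*p53* dKO line. Such intervals cover counting error only, as the reads are not stated to carry molecular identifiers. *Nf1*/*Cdkn2a* dKO line 3 stood among the *Nf1*/*p53* dKO lines, and the log2 fold change was 0.81 ± 0.51 (SE, edgeR adjusted p = 0.4). An annotated lincRNA on the opposite strand, *AC167363.1*, shares 1645 of its 3732 exon bases and was not analysed here, so reads from it cannot be told apart from *Trp53cor1* unless strand was used.

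*Cdkn1a* itself measured 33.0, 41.3 and 108 CPM in *Nf1*/*p53* dKO lines 1 to 3 and 180, 158 and 128 CPM in *Nf1*/*Cdkn2a* dKO lines 1 to 3, without overlap. Its log2 fold change was 1.35 ± 0.46 (SE, edgeR adjusted p = 0.155), and without *Nf1*/*p53* dKO line 3 it was 2.07 with an adjusted p of 0.038, while leaving out any other line gave 1.06 to 1.48 with an adjusted p of 0.242 to 0.32. Both genes had their highest *Nf1*/*p53* dKO level in line 3 and their lowest *Nf1*/*Cdkn2a* dKO level in line 3, the latter above every *Nf1*/*p53* dKO line for *Cdkn1a* and below *Nf1*/*p53* dKO line 3 for *Trp53cor1*. As a description, Pearson's r of their log2 CPM was 0.83 over the 6 lines and 0.64 over the 18 cultures of those lines. *Cdkn1a* gave higher values with *Snhg1* (0.93 and 0.90) and *Snhg12* (0.84 and 0.75), which lie on other chromosomes. The counts of *Trp53cor1* were far lower than those of *Snhg1* and *Snhg12*, and counting error can lower its r. These values can thus not be ranked against each other, and a link to the position of the genes was not tested. *Srsf3*, a splicing factor on the other side, had a log2 fold change of -0.05 (edgeR adjusted p = 0.859).

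Of 30 p53 target genes, 7 were called and all 7 rose in the *Nf1*/*Cdkn2a* dKO (*Mdm2*, *Ccng1*, *Bax*, *Trp53inp1*, *Tnfrsf10b*, *Polk* and *Dcxr*), with 14 called by DESeq2 on the 6 lines and 18 by limma-voom. *Mdm2*, which marks p53 for destruction, measured 71.5, 84.8 and 64.4 CPM against 212, 206 and 233 CPM (log2 fold change 1.56, edgeR adjusted p = 0.0198), and *Ccng1* 88.4, 82.8 and 47.8 CPM against 446, 437 and 374 CPM (2.52, edgeR adjusted p = 0.021). Each of the 7 calls was lost when any *Nf1*/*Cdkn2a* dKO line was left out, edgeR's adjusted p being 0.0669 to 0.151. Those refits called few genes of any kind, 0, 2 and 23 of all genes without *Nf1*/*Cdkn2a* dKO lines 1 to 3 in turn. Over the refits without each of the 6 lines, the log2 fold change ran from 1.48 to 1.69 for *Mdm2* and from 2.30 to 2.68 for *Ccng1*. With an *Nf1*/*p53* dKO line left out, *Mdm2* kept its call in all 3 refits, *Ccng1* and *Dcxr* lost it without line 2 (both 0.0659), *Trp53inp1* without line 1 (0.0792) or line 2 (0.0674), and *Bax*, *Tnfrsf10b* and *Polk* in each refit (0.0579 to 0.0965). In all, 24 of 30 were above 0, with a median log2 fold change of 0.97 and values from -1.50 for *Gdf15* to 3.12 for *Ephx1*. The study chose p53 loss as one of its arms, and earlier results of these data were known when the list was made, so its direction is no independent evidence. Beside this list, the members introduced above as linked to p53 gave 0.81 for *Trp53cor1*, 0.50 for *Mir22hg* and -0.26 for *Lncpint*, none called. Links of the other members to p53, among them *Neat1* (0.87) and *Pvt1* (-1.52), were not examined here.

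*Mir22hg*, the host of miR-22, lies at chr11:75461539-75466676 on the plus strand. It measured 18.2, 16.8 and 11.2 CPM in *Nf1*/*p53* dKO lines 1 to 3 and 18.97, 18.9 and 27.6 CPM in *Nf1*/*Cdkn2a* dKO lines 1 to 3. The lines did not overlap, but by only 18.9 against 18.2 CPM, and the cultures did, at 10.8 to 19.5 against 15.95 to 28.7 CPM. Its log2 fold change was 0.50 ± 0.27 (SE, edgeR adjusted p = 0.32), and 0.30 without *Nf1*/*Cdkn2a* dKO line 3. *Tlcd2*, a membrane lipid gene whose start is 176 bases away and which shares 206 exon bases on the same strand, measured 25.4, 17.7 and 15.01 CPM against 5.76, 3.65 and 16.5 CPM (log2 fold change -1.17, edgeR adjusted p = 0.285). *Wdr81* on the other side gave -0.31 (edgeR adjusted p = 0.512).

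*Lncpint* (chr6:31082565-31220488, minus strand, 13 exon blocks) was the least abundant member, with 31, 23 and 17 counts in *Nf1*/*p53* dKO lines 1 to 3 and 21, 14 and 17 counts in *Nf1*/*Cdkn2a* dKO lines 1 to 3. These were 0.399, 0.325 and 0.235 CPM against 0.337, 0.202 and 0.266 CPM, and the cultures of all lines overlapped. The log2 fold change of -0.26 ± 0.44 (SE, edgeR adjusted p = 0.762) was not distinguishable from 0 at this depth. Single cultures held between 0 and 20 counts, and a count of 0 allows up to 3 counts. Without strand, 138 exon bases cannot be told apart from *2210408F21Rik* on the opposite strand, which measured 1.47 to 3.28 CPM. *Mkln1*, the nearest coding gene with reads, had a log2 fold change of -0.16 (edgeR adjusted p = 0.459).

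**Figure D4:**
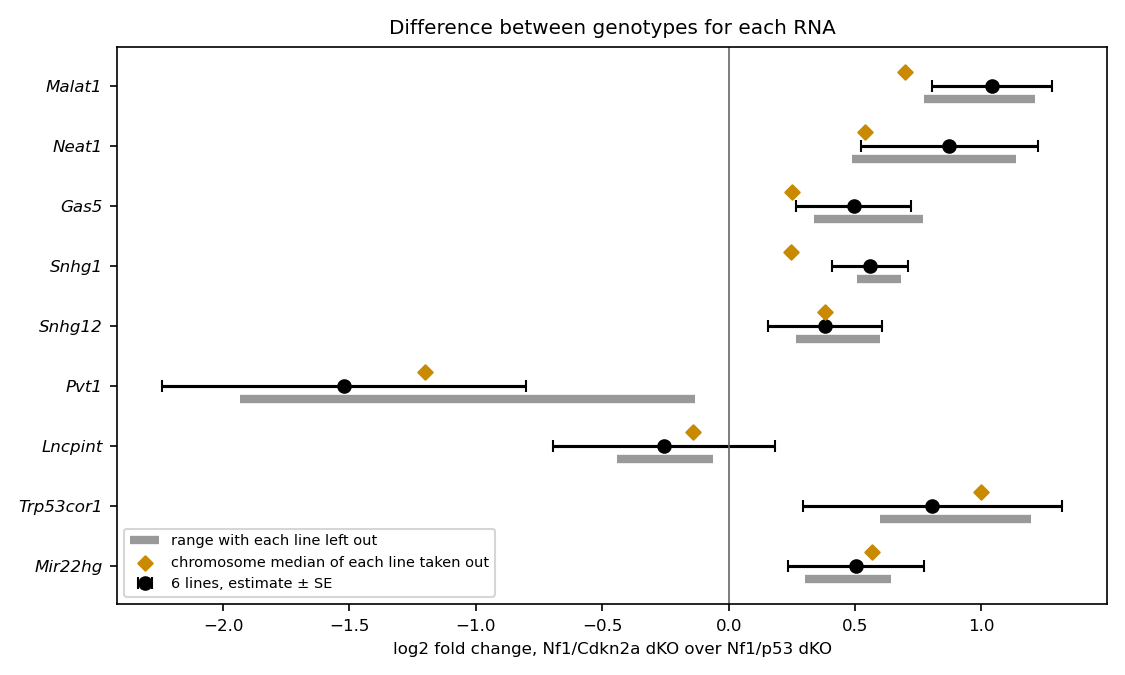
Log2 fold change of the *Nf1*/*Cdkn2a* dKO over the *Nf1*/*p53* dKO (horizontal axis) for each RNA, as the estimate ± SE from 6 lines (black), the range of estimates with each line left out in turn (gray bars) and the estimate with the chromosome median of each line taken out (diamonds). *Pvt1* reaches from -1.93 to -0.14 when lines are left out, and the diamond of *Snhg1* lies at 0.25 against 0.56.

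The 3 members at an unadjusted p under 0.05 all lie on chromosome 19. After this was seen, the median deviation of the tested genes of each chromosome from their mean over the 6 lines was computed for every line. Over 518 tested genes of chromosome 19 it was -0.18, -0.26 and -0.05 in *Nf1*/*p53* dKO lines 1 to 3 and 0.24, -0.08 and 0.33 in *Nf1*/*Cdkn2a* dKO lines 1 to 3 on the log2 scale. The median log2 fold change of this chromosome was 0.30, the highest of the 20 chromosomes examined, with 73.2% of its genes above 0. Its highest lines, *Nf1*/*Cdkn2a* dKO lines 3 and 1, were also the highest for *Malat1*, whereas *Nf1*/*Cdkn2a* dKO line 2 lay below *Nf1*/*p53* dKO line 3 on the chromosome and not for *Malat1*. Chromosome 1, which carries *Gas5*, was lowest in *Nf1*/*p53* dKO line 3 (-0.61, against 0.10 to 0.16 in the other 5 lines), where *Gas5* was also lowest. Chromosome 15 with *Pvt1* was lower in the *Nf1*/*Cdkn2a* dKO (median log2 fold change -0.38, 20.6% above 0), whereas chromosome 11 with *Mir22hg* differed little between lines (-0.04 to 0.08).

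With the chromosome median of each line taken out in the same edgeR fit, the log2 fold change of *Malat1* was 0.70 ± 0.17 (SE, adjusted p = 0.0882), of *Neat1* 0.54 ± 0.33 (SE, adjusted p = 0.382) and of *Snhg1* 0.25 ± 0.11 (SE, adjusted p = 0.248). *Gas5* went from 0.49 to 0.25 and *Trp53cor1* from 0.81 to 1.00. *Malat1* was the 1 member left at an unadjusted p under 0.05 in that edgeR fit. What sets the level of a whole chromosome in these lines was not tested.

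**Figure D5:**
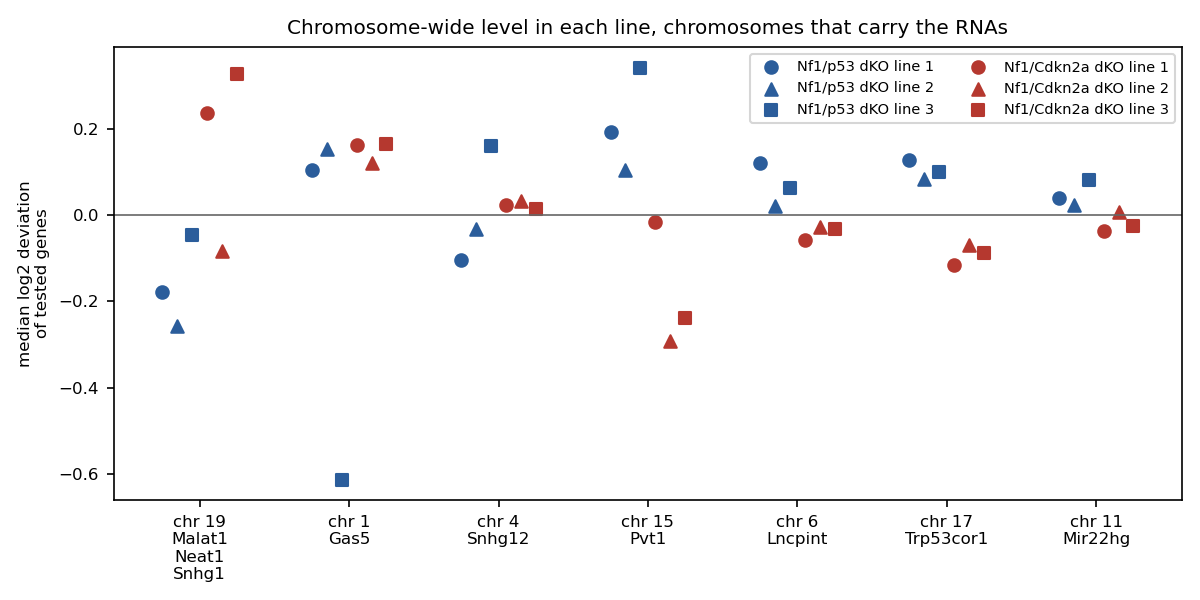
Median over tested genes of log2 CPM less the gene's mean over the 6 lines (vertical axis), for the chromosomes that carry the members (horizontal axis) and for each line (blue *Nf1*/*p53* dKO, red *Nf1*/*Cdkn2a* dKO, marker shape by line number). Chromosome 19 is highest in *Nf1*/*Cdkn2a* dKO lines 3 and 1 (0.33 and 0.24), and chromosome 1 stands at -0.61 in *Nf1*/*p53* dKO line 3.

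For 7 of the 9 RNAs most of the spread among the *Nf1*/*p53* dKO cultures was a spread between lines. For *Pvt1*, 99.7% of the variance of log2 CPM among the *Nf1*/*p53* dKO cultures lay between lines, and for *Neat1*, *Mir22hg* and *Gas5* it was 93.2, 92.2 and 91.8%, compared with a median of 83.1% over all tested genes. *Malat1* and *Lncpint* had 0% there, their cultures varying as much as their lines. Among the *Nf1*/*Cdkn2a* dKO cultures the share ran from 0% for *Lncpint* to 89.9% for *Neat1*, compared with a median of 55% over all genes. The highest line was 1.70 to 3.42 times the lowest for every member except *Pvt1* (7.54 times), and the median of this ratio over all tested genes was 2.17.

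Patterns were also compared between genes, as a description over 18 cultures that share 6 lines. Among the 36 pairs of members, Pearson's r of log2 CPM ran from -0.58 (*Neat1* and *Pvt1*) to 0.82 (*Malat1* and *Snhg1*), followed by 0.79 for *Neat1* with *Mir22hg* and 0.78 for *Malat1* with *Neat1*. Of 13435 tested protein-coding genes outside the lists, those most like each member included *Atrnl1* for *Malat1* (0.96), *Cnpy2* and *Tmtc2* for *Neat1* (both 0.97), *S1pr2* and *Tagln2* for *Gas5* (both 0.96), *Prpf19* and *Tbx18* for *Snhg1* (0.96 and 0.95), and *Akr1a1* and *Tsen34* for *Snhg12* (both 0.91). For *Pvt1* they were *Plod3* and *Itih2* (0.94 and 0.93), for *Mir22hg* *Cnn2* and *Rab23* (0.96 and 0.95), for *Trp53cor1* *B3galnt2* and *Plekhf2* (0.86 and 0.84), and for *Lncpint* *Hist1h2ad* and *Dcst1* (0.80 and 0.78). *Atrnl1* and *Prpf19* lie on chromosome 19, *Tagln2* on chromosome 1 and *Akr1a1* on chromosome 4, each the chromosome of the member it resembled.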

How the data were processed

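The authors deposited raw read counts, not normalized, for 35275 genes in 18 libraries. The submitters' processing notes name CASAVA, STAR 2.5, DESeq2 1.14.1 and GRCm38/mm10; the counting tool, its strand setting and the annotation are not given in the sources used here. Column names gave the genotype, the line and the culture. Here, the 3 cultures of each line were added up, filtered with filterByExpr (minimum count 10, minimum total 15), normalized by TMM, and tested by quasi-likelihood in edgeR with Benjamini-Hochberg adjustment over all 15207 genes (R 4.3.3 with edgeR 4.0.16, DESeq2 1.42.0 and limma 3.58.1; Python 3.11.15). Log2 CPM used a prior count of 0.5. Positions, exons and chromosomes came from GENCODE M21 (GRCm38), which holds 34490 of the identifiers, and sequences from RefSeq. Depth was 19560535 to 28312207 counts per library. P-values measure the spread between lines, each 1 tumor.

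The members and gene lists were chosen with earlier results of these data known. Genes named are the members, *Trp53*, *Nf1* and *Cdkn2a*, in each list the called genes and the highest and lowest log2 fold change, always *Cdkn1a* and *Myc*, coding neighbors within 500000 bases, genes sharing exon bases, and the 2 coding genes most like each member; *Fam84b*, *9930014A18Rik*, *Trib1*, *Fam49b*, *Wisp1* and *Derl1* were chosen after their values were seen, and some genes that the rule names are not reported here. Line numbers did not pair the genotypes (correlation of same-numbered deviations -0.136 to -0.0841). The alternatives were other tests, units, scalings, filters, blocks and each line left out, and, chosen after seeing the data, the chromosome median of each line as an offset. The fit was tested on simulated data: 17 of 65 genes given a log2 change of 1, 26 of 64 given 2 and 53 of 66 given 3 were called, with 0 false calls in 14925 genes.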

Additional observations from a re-analysis of the deposited data

Results flagged for a closer look

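In the 9 cultures of a genotype, the gap of the highest or lowest culture to the next was compared with the whole range for each of the 9 RNAs, 18 groups in all. *Snhg12* stood out once: culture 1 of *Nf1*/*Cdkn2a* dKO line 1 measured 16.7 CPM, with a gap of 0.507 of the range (critical value 0.493), while the other 8 cultures of the genotype lay between 24.1 and 31.2 CPM. Chance marks about 1 in 20 groups of independent samples, but the 9 cultures are 3 from each of 3 lines, so this rate does not strictly apply. That culture also had the highest share of mitochondrial counts of its genotype (2.95%, against 1.92 to 2.46% in the others), and the part of this in the low value was not tested. The same culture was the lowest of its line for *Neat1* (82.4 CPM, against 115 and 133 CPM).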

How the results depend on the processing

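With 3 lines per genotype the simulated fit called 17 of 65 genes changed by 1 on the log2 scale, so a change of that size could pass or fail. Changes under 1, which most members showed, were not simulated. Each simulated gene had the spread fitted for its level, with no spread of its own. Counts of 14 to 78 per line limit *Lncpint* and *Trp53cor1*. The number of members called was 0 in the reported fit and 1 with DESeq2 on the lines, 7 with edgeR and 7 with DESeq2 on the 18 cultures, 2 with limma-voom and a random line effect, and 7 with the culture number as a block, where 5681 of 13110 genes were called; the cultures of a line are not independent. It was 0 to 0 with each line left out, where edgeR called only 0 to 172 of all genes (0 without *Nf1*/*Cdkn2a* dKO line 1), and 0 under the other scalings and filters and with the chromosome median taken out. With the line number as a replicate block, which does not pair the samples, it was 0 (*Malat1* 1.00, adjusted p = 0.149), and edgeR then called 0 of 15207 genes. No member changed sign in 159 refits under 18 settings. The centre of all genes moved from -0.02 to -0.16 with raw total counts, where *Malat1* was 0.90 and *Snhg1* 0.42.

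Some other named genes changed sign. With a line left out, *Cdkn2a* ran from -0.18 to 0.81, *Myc* from -0.68 to 0.039, *Serpinc1* from -1.31 to 0.37, *Trnau1ap* from -0.038 to 0.073, *Srsf3* from -0.12 to 0.030 and *Nop58* from -0.066 to 0.28. *Trnau1ap* was 0.0032 with DESeq2 on the lines, 0.00096 with DESeq2 size factors and 0.0046 with no filter. With raw total counts *Nop58* was -0.010. With the chromosome median taken out *Slc3a2* was -0.17, *Srsf3* 0.14, *Nop58* -0.12 and *Rpl8* 0.00091, and *Smg5* (-0.61, adjusted p = 0.108) and *Tnfrsf10b* (1.11, adjusted p = 0.0595) were no longer called by edgeR. *Bax* was also lost with raw total counts (adjusted p = 0.058), and *Tnfrsf10b* with DESeq2 size factors (0.0503), upper quartile scaling (0.0503) and the stricter filter (0.0509). The cause was not tested.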

Other observations

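Other long noncoding RNAs of the table gave values beyond the members. Of 16 in the list, 15 were tested and edgeR called 1: *H19*, an imprinted RNA beside Igf2, measured 19.03, 40.3 and 69.7 CPM in *Nf1*/*p53* dKO lines 1 to 3 and 0.353, 0.202 and 0.422 CPM in *Nf1*/*Cdkn2a* dKO lines 1 to 3, without overlap (log2 fold change -7.04 ± 0.64 (SE), adjusted p = 0.0189). DESeq2 on the 6 lines called 7 of the list and limma-voom 4. The call on *H19* was lost when any *Nf1*/*Cdkn2a* dKO line was left out (adjusted p 0.0669 to 0.0962) and held without each *Nf1*/*p53* dKO line (0.0323 to 0.0482). Without an *Nf1*/*Cdkn2a* dKO line, edgeR called only 0 to 23 of all genes. The median log2 fold change of the list was -0.28, 7 of 15 were above 0, and the median came to 0.07 without *Nf1*/*p53* dKO line 3. *Mir155hg*, the host of miR-155, had the highest value, 1.54 ± 0.53 (SE, edgeR adjusted p = 0.161), at 0.249 to 0.622 CPM against 0.672 to 1.499 CPM.

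Chosen after their values were seen, *Meg3* and *Rian*, transcripts of 1 imprinted cluster, were high in the same line as *Pvt1*. *Nf1*/*p53* dKO line 2 had 35.7 CPM of *Meg3* and 100.2 CPM of *Rian*, compared with at most 6.07 and 10.8 CPM in any other line. Chromosome 12 as a whole was low in *Nf1*/*p53* dKO line 3 (-0.58 on the log2 scale, against -0.03 to 0.19 elsewhere), as was chromosome 16 (-0.52), and neither carries any of the 9 RNAs.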
